A study of Homo sapiens with 4 samples.

Results

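Progression through the G1 phase of the cell cycle depends on cyclins, the kinases they activate and the inhibitors that restrain both. The genes described here are 10 of these regulators among the 58884 genes listed in each count table: the D-type cyclins CCND1, CCND2 and CCND3, the E-type cyclins CCNE1 and CCNE2, the kinases CDK2, CDK4 and CDK6, and the inhibitors CDKN1B (p27) and CDKN1C (p57). They were taken as a fixed list of symbols, and all 10 were found in the tables. HCT116, a human colorectal carcinoma cell line, was profiled by RNA sequencing in 2 control libraries and 2 libraries with RALY knockdown, RALY being an hnRNP protein that binds RNA. Per the labels' protocols, the cells were given lentivirus with a short hairpin RNA, directed at RALY or nonsilencing, for 72 h, together with a reagent that aids infection. The controls are named wild type and untreated in other labels, so it is not settled whether they carried the nonsilencing hairpin. The source label gives the cell line another number in the second library of each group, although every library has HCT-116 as its cell line entry. The number of hairpins is not stated. Whether the libraries of a group stem from separate cultures is not labelled. The p-values therefore rest on the spread between 2 libraries, which may be technical.

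D-type cyclins are induced by growth signals and activate CDK4 and CDK6, which begin the phosphorylation of the retinoblastoma protein. E-type cyclins then activate CDK2, phosphorylation is completed, and E2F transcription factors are released to switch on genes of DNA synthesis. CDKN1B and CDKN1C, of the CIP/KIP family, inhibit cyclin E and CDK2 complexes, and much of the control of these proteins is exerted after transcription, by phosphorylation and degradation. Only RNA levels were measured here.

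Library totals ran from 13360007 to 16847520 counts. RALY RNA was reduced in each knockdown library, with 144 and 123 CPM (counts per 1e6 counts, scaled by TMM factors) in the controls and 39.6 and 35.1 CPM after knockdown, so 27.9% of the control level remained (edgeR adjusted p = 6.59e-06, log2 fold change -1.84 with an SE of 0.127). Of the colorectal epithelial markers, EPCAM had between 1684 and 1948 counts and KRT8 between 2723 and 3078 in the 4 libraries, while the differentiation markers VIL1, LGALS4, CDX1 and CDH17 had at most 14 counts in any library. The VIL1 count is uncertain, since 44% of its exon bases overlap USP37 on the opposite strand. The summed level of 8 leukocyte markers lay at 38.0 and 35.1 CPM in the controls and 35.9 and 36.3 CPM in the knockdown, and that of 8 fibroblast markers at 127 and 148 CPM and at 103 and 133 CPM. Most of each sum came from 1 gene. CD68 (leukocyte) had 31.9 and 27.5 CPM in the controls and 23.0 and 22.7 CPM in the knockdown. Its value is uncertain, since 85.6% of its exon bases are shared with other genes. COL1A1 (fibroblast) had 111.4 and 130.9 CPM in the controls and 80.6 and 110.5 CPM in the knockdown. The 8 HEK293T markers, from a line in which lentivirus is packaged, summed to 327 and 308 CPM in the controls and 313 and 388 CPM in the knockdown, and of these INA had no count in any library. ENO2 alone had 189 and 178 CPM in the controls and 186 and 235 CPM in the knockdown. Of the tested markers, ITGAM (leukocyte) and NEFH (HEK293T) were called higher, 1 of 5 in each list, neither of the 2 tested fibroblast markers was called by edgeR or DESeq2 (1 higher and 1 lower at an unadjusted p under 0.05), and the epithelial CDX2 was called lower, 1 of 7. At an unadjusted edgeR p under 0.05, 3793 of all 19686 tested genes were higher and 3731 lower. The part of other cells in the results below was not tested.

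In outline, 2 of the 9 tested genes rose after RALY knockdown, CCNE2 by 1.60-fold and CDK6 by 1.69-fold, and 1 fell, CCNE1, to 60.8% of the control level. The other 6 tested genes did not pass the test, and CCND2 had too few counts to be tested. Over all 19686 genes tested, 12.5% were called higher and 13.1% lower (edgeR quasi-likelihood test, Benjamini-Hochberg adjusted p under 0.05), 25.6% in either direction. With 9 genes, 3 calls are near that background, so the count by itself sets the G1 regulators apart from no other genes. The control and knockdown libraries did not overlap in 5 of the 9 tested genes, where this was so for 63.6% of all tested genes. The median log2 fold change was 0.0066 over the 9 genes and 0.014 over all genes tested.

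**Figure D1:**
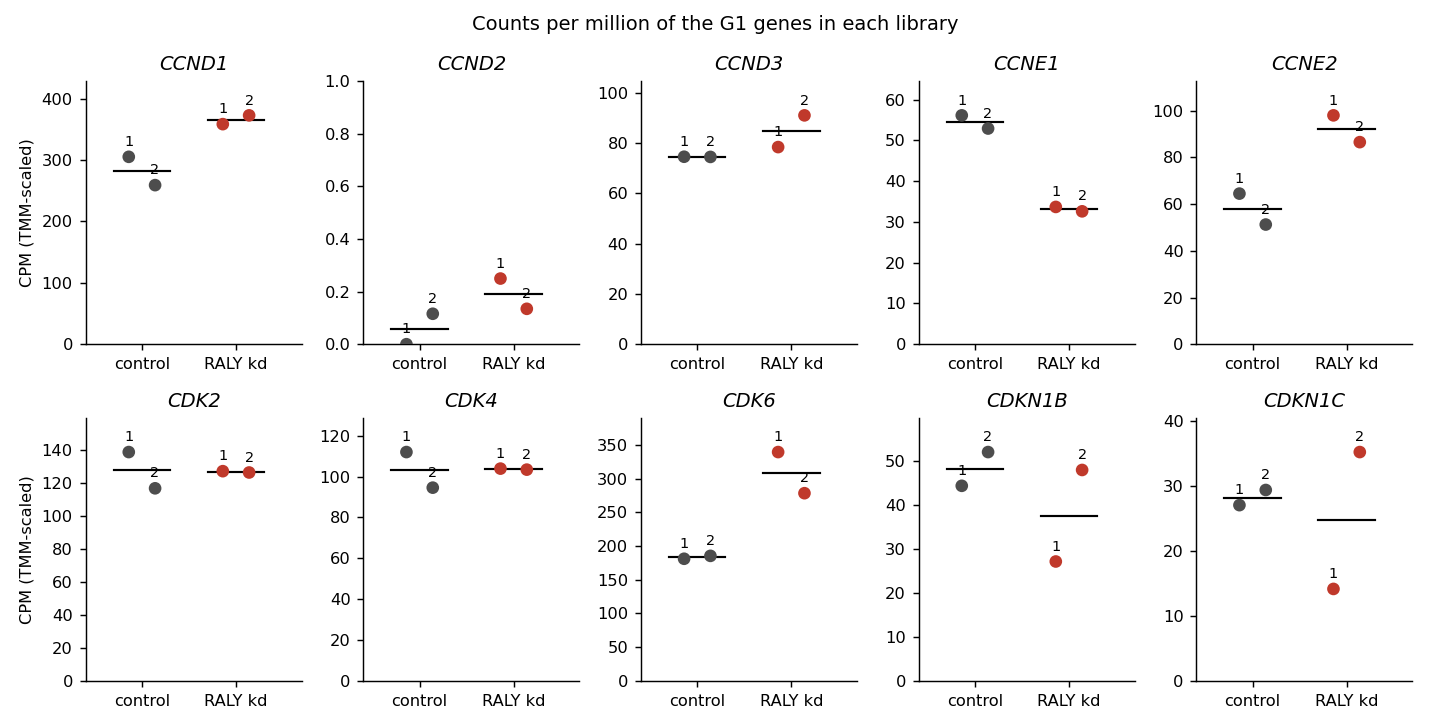
TMM-scaled CPM (vertical axis, from 0) of the 10 G1 genes in 2 control and 2 RALY knockdown (kd) libraries; points are libraries with their replicate number and lines are group means. CCNE1 lay at 56.2 and 52.9 CPM in the controls and 33.7 and 32.6 CPM after knockdown, while CCNE2 and CDK6 were higher in both knockdown libraries and CCND2 stayed under 1 CPM.

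For the 2 called genes with an entry among the RefSeq promoters (GRCh38.p14, from 250 bases before to 50 after the start of the entry), the sequence around that start is shown. For CDK6 this start is not the one of the gene in the count tables (position 92836594). The promoter of E2F1 is shown beside those of the 2 genes because E2F1 fell and E2F factors are released when the G1 kinases phosphorylate the retinoblastoma protein. Capitals mark the GC box (GGGCGG, either strand) in CCNE1 and CDK6, and the E2F motif in E2F1, searched on either strand as TTTCCCGC, TTTCGCGC, TTTGCCGC or TTTGGCGC. Overlapping matches were allowed, and no GC box overlapped an E2F motif in these windows.
CCNE1, chr19:29811741-29812040, plus strand: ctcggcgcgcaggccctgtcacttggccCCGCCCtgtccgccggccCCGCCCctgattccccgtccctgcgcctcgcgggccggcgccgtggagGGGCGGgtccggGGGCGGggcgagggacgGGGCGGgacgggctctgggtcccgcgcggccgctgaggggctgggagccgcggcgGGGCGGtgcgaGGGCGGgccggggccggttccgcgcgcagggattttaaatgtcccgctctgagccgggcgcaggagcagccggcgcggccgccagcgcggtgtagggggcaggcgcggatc
CDK6, chr7:92836524-92836823, minus strand: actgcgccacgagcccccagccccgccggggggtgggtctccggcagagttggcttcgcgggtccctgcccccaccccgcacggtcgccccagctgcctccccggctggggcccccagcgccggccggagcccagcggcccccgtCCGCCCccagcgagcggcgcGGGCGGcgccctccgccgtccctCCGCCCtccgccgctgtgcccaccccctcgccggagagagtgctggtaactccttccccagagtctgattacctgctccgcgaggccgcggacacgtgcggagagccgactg
E2F1, chr20:33686336-33686635, minus strand: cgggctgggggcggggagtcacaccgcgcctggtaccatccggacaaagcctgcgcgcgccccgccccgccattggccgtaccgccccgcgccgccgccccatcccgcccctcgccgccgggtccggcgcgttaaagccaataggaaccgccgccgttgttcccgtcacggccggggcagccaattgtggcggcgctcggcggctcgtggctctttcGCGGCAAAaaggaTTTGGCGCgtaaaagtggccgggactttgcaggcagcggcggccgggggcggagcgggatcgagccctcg

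Of the 10 G1 genes, 5 had promoter entries, namely CCND3, CCNE1, CDK4, CDK6 and CDKN1B. The windows of CCNE1 and CDK6 held 7 and 3 GC boxes and had 81% and 78% G and C bases. Together the 5 genes had 8 promoter windows, of which 6 (75%) held a GC box, beside 45% of all 35116 promoters. None of the 8 windows had an E2F motif in these letters, which were present in 3.31% of all promoters, and the E2F1 window held 2. Of 29 promoter windows of genes used below as E2F targets, 11 (37.9%) held the E2F motif and 25 (86.2%) a GC box. For the pocket proteins and E2F partners described below, 5 of 9 windows (55.6%) held the E2F motif and 5 a GC box. A match in letters is a description of the sequence only.

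The E-type cyclins moved in opposite directions. CCNE1 (ENSG00000105173, chromosome 19, positions 29811991 to 29824312, GRCh38, plus strand) encodes cyclin E1, an activator of CDK2. Its counts were 741 and 915 in the control libraries against 540 and 485 after knockdown, or 56.2 and 52.9 against 33.7 and 32.6 CPM. Both knockdown libraries lay below both controls, with a distance many times the spread within either group. The level fell from 54.6 ± 2.29 to 33.2 ± 0.761 CPM (SD, n = 2 each), which is 60.8% of the control (edgeR adjusted p = 0.00204, log2 fold change -0.72 with an SE of 0.129). Leaving out either control, replicate 1 or 2, ended the call (edgeR adjusted p = 0.0604 and 0.0518), with log2 fold changes of -0.71 and -0.77.

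CCNE2 (ENSG00000175305, chromosome 8, positions 94879770 to 94896678, minus strand) encodes cyclin E2, the second activator of CDK2 of this type. Control libraries held 851 and 886 counts and knockdown libraries 1571 and 1287, or 64.5 and 51.3 against 98.0 and 86.5 CPM. Here both knockdown libraries lay above both controls. The level rose from 57.9 ± 9.37 to 92.3 ± 8.11 CPM, a 1.60-fold change (edgeR adjusted p = 0.0035, log2 fold change 0.68 with an SE of 0.134). Without control replicate 2 the log2 fold change was 0.50 and the call was lost (edgeR adjusted p = 0.108).

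Division by transcript length lets levels of different genes be set side by side, but does not undo any levelling off of counts (described under CCND1 below). Levels are given here as CPM per kb of the canonical transcript. On that scale CCNE1 exceeded CCNE2 in the controls, at 28.7 and 27.1 against 24.1 and 19.2 CPM per kb. After knockdown the order was the opposite, with CCNE1 at 17.2 and 16.7 and CCNE2 at 36.7 and 32.4 CPM per kb. CCNE2 made up 45.6% and 41.4% of the summed cyclin E level in the controls and 68.0% and 66.0% after knockdown, a shift of 23.5 percentage points between the group means (43.5 ± 2.96% and 67.0 ± 1.44%, SD, n = 2 each). This share is a ratio within each library and does not depend on how libraries were scaled. With 2 against 2 libraries an exact permutation test cannot go below p = 0.33, so the shift is given without a test. The order of the genes rests on the length used. With no division by length, CCNE2 held 51.3% in the controls and 73.5% in the knockdown, and with the length of the deposited gene model it held 37.1% and 60.9%. The shift lay between 22.2 and 26.0 points on all 4 scales tried, counts corrected for levelling off included.

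The summed cyclin E level was 52.9 and 46.3 CPM per kb in the controls and 53.9 and 49.1 CPM per kb in the knockdown. The groups overlapped, with means of 49.6 ± 4.67 and 51.5 ± 3.42, so the sum differed by less than the spread between the controls while its composition shifted. The plot of stacked levels shows this exchange between the cyclin E genes.

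**Figure D2:**
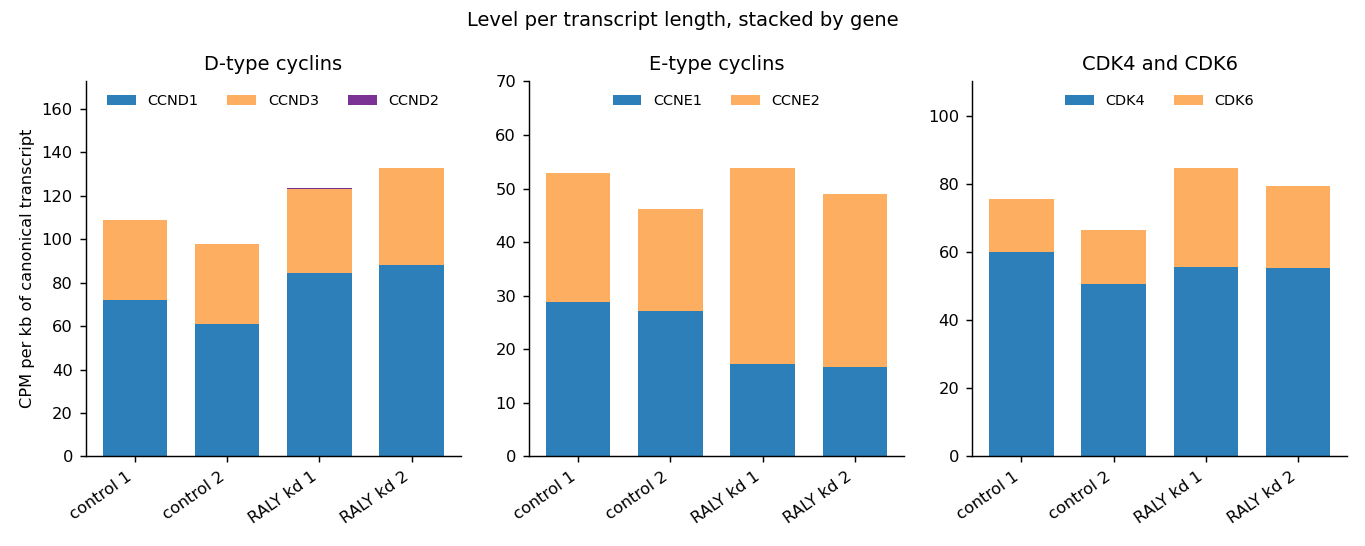
CPM per kb of canonical transcript (vertical axis, from 0) in each of the 4 libraries (kd, RALY knockdown), stacked by gene for the D-type cyclins, the E-type cyclins and CDK4 with CDK6. The cyclin E bars have similar heights, between 46.3 and 53.9, with more CCNE2 after knockdown, and the CDK6 portion is larger in both knockdown libraries.

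Among the D-type cyclins no gene passed the test. CCND1 (ENSG00000110092, chromosome 11, positions 69641087 to 69654474, plus strand) encodes cyclin D1 and had the highest level per length of the 10 genes in every library. It was counted 4025 and 4477 times in control libraries, and 5744 and 5541 times after knockdown, or 305 and 259 against 358 and 373 CPM. Both knockdown libraries lay above both controls. The mean went from 282 ± 32.6 to 366 ± 10.1 CPM (log2 fold change 0.37, SE 0.134, 95% interval 0.08 to 0.67, edgeR adjusted p = 0.0587, unadjusted p = 0.0161). CCND1 was also the gene, among the 10, whose value moved most under a correction for possible levelling off of counts. Of the 76 genes with a mean over 5000 counts, 93.4% did not exceed 2 reads per base of transcript, and the median was 0.879. The other 5 genes exceeded it, by up to 3.04 reads per base in all, so a limit at 2 is an assumption. The mean count of CCND1 reached 58.4% of that level, the most among the 10 genes. Near such a limit differences can be compressed. With counts corrected for the assumed limit, the log2 fold change was 0.61 and CCND1 was called higher (edgeR adjusted p = 0.0144). It was called in 7 of the 13 alternative settings, the DESeq2 Wald test among them (adjusted p = 0.016), with log2 fold changes between 0.25 and 0.61.

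CCND3, the gene of cyclin D3, had 74.6 and 74.5 CPM in the controls and 78.4 and 91.0 CPM in the knockdown. The knockdown libraries lay above the controls but differed from each other by more than the nearer one did from the controls. The log2 fold change was 0.18 (SE 0.117, 95% interval -0.07 to 0.44, edgeR adjusted p = 0.274). With offsets for GC content and length it was 0.36 and passed the test (edgeR adjusted p = 0.0281), as it did when the replicate block was added to these offsets (edgeR adjusted p = 0.00403).

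CCND2, the gene of cyclin D2, was close to silent in this line. The control libraries held 0 and 2 counts of it and the knockdown libraries 4 and 2, and a count of 0 allows up to 3 counts, or 0.225 CPM in that library. These levels are at the limit of detection, so no fold is given. A readthrough gene on the same strand, ENSG00000285901, covers 13.9% of the exon bases of CCND2, and reads there may not have been assigned to either gene. The other 86.1% of its exon bases, 6171 in all, are its own. The span of the readthrough gene, positions 4273762 to 4405490, encloses that of TIGAR, positions 4307763 to 4360028. Both were called higher, by 0.63 and 0.56 on the log2 scale (edgeR adjusted p = 0.0094 and 0.0109). TIGAR was looked up after these counts were seen. Whether the exons of these genes overlap was not examined, and reads in any shared exons cannot be told apart.

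The summed D-type cyclin level was 109 and 97.9 CPM per kb in the controls and 123 and 133 CPM per kb in the knockdown, and the groups did not overlap. CCND1 supplied 66.2% and 62.4% of it in the controls and 68.6% and 66.2% after knockdown. Its share thus differed by 3.08 points between group means, close to the spread within groups (SD 2.65 and 1.71 points), while the E-type cyclins shifted by 23.5 points. The D-type value depends on single libraries, at 4.95 points without control replicate 1, 1.21 without control replicate 2 and 1.87 without knockdown replicate 1, and on the length used, at 1.94 points with the length of the deposited gene model.

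Of the kinases, CDK6 changed and its partner paralog CDK4 did not pass the test. CDK6 (ENSG00000105810, chromosome 7, positions 92604921 to 92836594, minus strand) encodes a D-type cyclin-dependent kinase. It was counted 2390 and 3205 times without and 5439 and 4139 times with the knockdown, or 181 and 185 against 339 and 278 CPM. The controls lay close together, the knockdown libraries lay further apart, and the groups did not overlap. The level rose 1.69-fold, from 183 ± 3.01 to 309 ± 43.1 CPM (edgeR adjusted p = 0.00179, log2 fold change 0.75 with an SE of 0.133). Among the 10 genes it was the one called in all 13 alternative settings, with log2 fold changes between 0.53 and 0.88. Most of its 12260 exon bases lie outside other genes, with 0.661% shared with the antisense gene CDK6-AS1.

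CDK4, the other kinase of the D-type cyclins, had 112 and 94.6 CPM in the controls and 104 and 103 CPM in the knockdown, so that both knockdown libraries fell between the controls. The log2 fold change was 0.0066 (SE 0.117, 95% interval -0.25 to 0.26, edgeR adjusted p = 0.976), and its sign varied with the scaling. The value is uncertain, since 44.2% of the exon bases of CDK4 overlap TSPAN31 on the opposite strand and it is not stated whether strand was used in counting. TSPAN31 itself was not called (edgeR adjusted p = 0.896, log2 fold change -0.05).

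Per length, CDK4 exceeded CDK6 in every library, at 60.1 and 50.7 against 15.5 and 15.9 CPM per kb in the controls. After knockdown CDK4 had 55.7 and 55.5 and CDK6 had 29.1 and 23.9 CPM per kb. With counts corrected for levelling off, the mean share of CDK6 in the summed CDK4 and CDK6 level was 19.0% in the controls and 28.9% after knockdown. Uncorrected, CDK6 supplied 20.6% and 23.9% of that level in the controls and 34.3% and 30.1% after knockdown, a shift of 9.99 points. This share was added after the data were seen, is given without a test, and carries the uncertainty of the CDK4 counts.

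CDK2, the kinase of the E-type cyclins, had 139 and 117 CPM in the controls and 127.3 and 126.5 CPM in the knockdown. Both knockdown libraries lay between the controls, with a log2 fold change of -0.010 (SE 0.118, 95% interval -0.27 to 0.25, edgeR adjusted p = 0.964). For CDK2 and CDK4 alike the interval leaves room for changes of up to about 0.27 on the log2 scale in either direction.

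**Figure D3:**
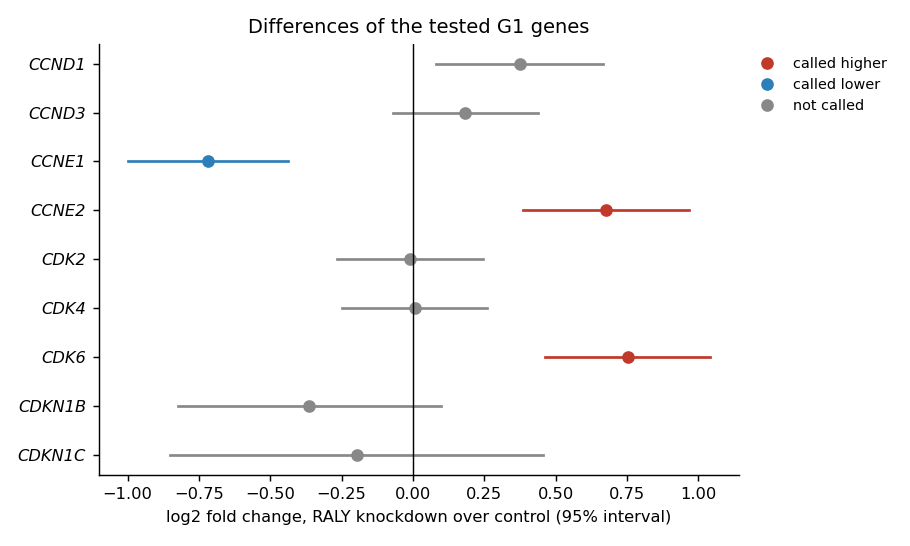
Log2 fold change of RALY knockdown over control (horizontal axis) with its 95% interval from the edgeR quasi-likelihood fit for the 9 tested G1 genes; colours give calls at an adjusted p under 0.05. CCNE2 at 0.68 and CDK6 at 0.75 lie to the right, CCNE1 at -0.72 to the left, and the intervals of CDKN1B and CDKN1C are the widest.

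The inhibitors CDKN1B and CDKN1C differed more between the knockdown libraries than between the groups. CDKN1B (ENSG00000111276, chromosome 12), which encodes p27, had 44.3 and 52.0 CPM in the controls and 27.1 and 47.9 CPM in the knockdown. Knockdown replicate 1 lay below both controls and knockdown replicate 2 lay between them. The log2 fold change was -0.36 (SE 0.212, 95% interval -0.82 to 0.10, edgeR adjusted p = 0.233). Without knockdown replicate 2 it was -0.84 and CDKN1B was called lower (edgeR adjusted p = 1.27e-05), and without knockdown replicate 1 it was -0.03 (edgeR adjusted p = 0.911). CDKN1B was also called lower with no filter on low counts (edgeR adjusted p = 0.0435) and with the replicate block, without and with GC and length offsets (0.0128 and 0.00384).

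CDKN1C (ENSG00000129757, chromosome 11), which encodes p57 and lies in an imprinted region, had 27.1 and 29.4 CPM in the controls and 14.2 and 35.2 CPM in the knockdown. The 2 knockdown libraries lay on opposite sides of the controls. The log2 fold change was -0.20 (SE 0.301, 95% interval -0.85 to 0.46, edgeR adjusted p = 0.681), the widest interval of the 9 genes. Leaving out knockdown replicate 2 gave -1.001 (edgeR adjusted p = 1.36e-05) and leaving out knockdown replicate 1 gave 0.30 (edgeR adjusted p = 0.193), so 1 library decides both the size and the direction.

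Other CDK inhibitors also had different levels in the libraries of a group. Of 7 inhibitors, CDKN1A, CDKN2A, CDKN2B, CDKN2C and CDKN2D added to the former, 6 were higher in replicate 2 than in replicate 1 in the controls and 6 in the knockdown, with CDKN2A lower in both. The median difference was 0.13 on the log2 scale in the controls and 0.51 in the knockdown, where it was 0.0031 and -0.0039 over all genes tested. The 24 E2F targets listed for the G1/S transition lay the other way. In replicate 2 they were lower for 23 of 24 in the controls (median -0.22) and for 21 of 24 in the knockdown (median -0.20), while 49.5% and 50.5% of all tested genes were lower. Counts corrected for levelling off gave 23 and 22 of 24. The lower level in control replicate 2 was not particular to E2F targets. EPCAM (136 CPM in control 1 and 113 in control 2), KRT8 (206 and 172), CDK2 (139 and 117) and CDK4 (112 and 94.6) were lower there too. Others, such as RB1 (78.5 and 83.8 CPM) and CDK6 (181 and 185), were higher. In the knockdown EPCAM had 113 CPM in both libraries, and KRT8 had 190 and 207. Replicate 2 had the larger total count among the controls and the smaller one in the knockdown. What separates the libraries of a group was not tested.

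**Figure D4:**
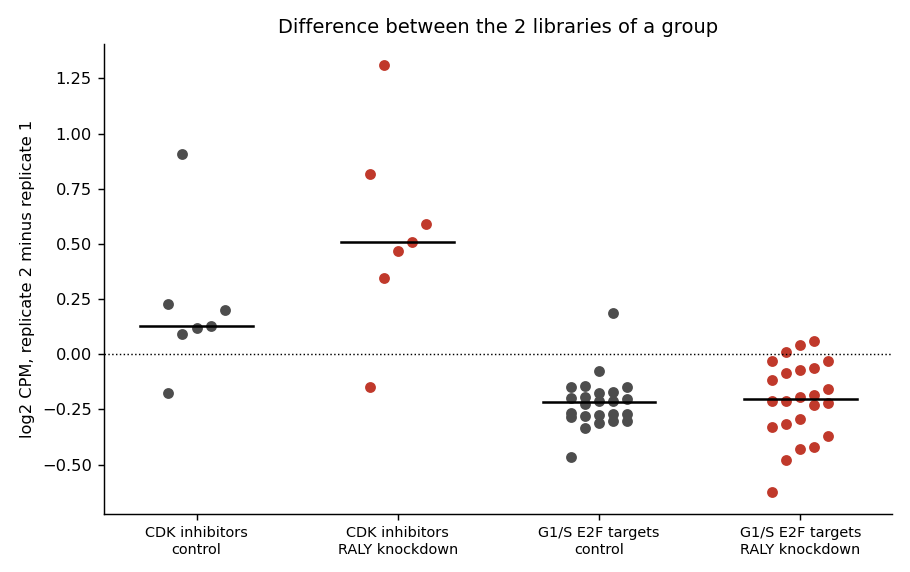
Log2 CPM of replicate 2 minus replicate 1 (vertical axis) within the controls and within the RALY knockdown, for 7 CDK inhibitors and 24 E2F targets; points are genes and lines are medians. Inhibitors lie mostly above 0, with a median of 0.51 in the knockdown, and E2F targets mostly below 0.

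Ordered by CPM per kb of the canonical transcript, with no correction for levelling off, CCND1, CDK2, CDK4 and CCND3 took the first 4 places in all 4 libraries. All places given here rest on that length, which was 2026 bases for CCND3, against 5802 in the deposited gene model. CDK2 lay above CDK4 in each library, at 62.0 and 52.2 against 60.1 and 50.7 CPM per kb in the controls and 56.8 and 56.5 against 55.7 and 55.5 CPM per kb in the knockdown. The gap was smaller than the spread between the controls but larger than that between the knockdown libraries. CDK2 and CDK4 had 2240 and 1865 bases in the canonical transcript and 3887 and 3094 in the deposited gene model. Their order rests on the length used and on the uncertain CDK4 counts. CCNE1 held the fifth place in both controls and CCNE2 in both knockdown libraries. CDK6 moved from 15.7 to 26.5 CPM per kb between group means, from the level of CDKN1C in the controls (15.9 CPM per kb) to above both inhibitors in each knockdown library. It held the sixth place in both knockdown libraries, and CCND2 the last in every library.

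Genes around these regulators were taken from 6 lists of the G1/S pathway holding 59 genes, of which 58 were tested. After knockdown 4 rose and 8 fell, 6.9% and 13.8% of those tested against 12.5% and 13.1% of all genes, with a median log2 fold change of -0.07 against 0.01. Of 7 pocket proteins and E2F partners, which receive the signal of the G1 kinases, RBL2 and E2F1 fell and E2F3 rose. RBL2, the p130 relative of the retinoblastoma protein found mainly in resting cells, had 113 and 108 CPM in the controls and 54.4 and 45.9 CPM in the knockdown (edgeR adjusted p = 8.39e-05, log2 fold change -1.14 with an SE of 0.122). E2F1, an activator of S phase genes, had 65.0 and 63.0 CPM in the controls and 45.7 and 34.2 CPM in the knockdown (edgeR adjusted p = 0.00579, log2 fold change -0.68). E2F3, an activator as well, had 112 CPM in both controls and 168 and 157 CPM in the knockdown (edgeR adjusted p = 0.00415, log2 fold change 0.54). Leaving out control replicate 1 or 2 ended the calls of E2F1 (edgeR adjusted p = 0.0972 and 0.0979) and of E2F3 (0.0694 and 0.0658). RB1, the retinoblastoma gene, was not called (edgeR adjusted p = 0.123, log2 fold change 0.25).

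None of the 5 other CDK inhibitors was called by edgeR or by DESeq2, though 3 had an unadjusted edgeR p under 0.05. These were 2 higher and 1 lower, beside 3793 higher and 3731 lower of all 19686 tested genes at that p. CDKN2B (p15), an inhibitor of CDK4 and CDK6, had 13.7 and 25.8 CPM in the controls and 25.4 and 38.3 CPM in the knockdown, so that the groups overlapped (edgeR adjusted p = 0.08, log2 fold change 0.68). It was called higher in 4 of 13 alternative settings: with no filter on low counts (edgeR adjusted p = 0.00267), with the replicate number as a block (6.81e-05), with that block and GC and length offsets (0.000118), and without knockdown replicate 1 (5.7e-06, log2 fold change 0.92). The size depends on single libraries, at 0.26 without control replicate 1, 1.1985 without control replicate 2 and 0.34 without knockdown replicate 2. CDKN2A, whose exons share 15.4% of their bases with an antisense gene, was not called either (edgeR adjusted p = 0.0865, log2 fold change -0.31), but was called lower with the replicate block (0.0427), with counts corrected for levelling off (0.0262) and without knockdown replicate 1 (0.0228).

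Of 5 genes that activate or assemble CDKs, CDC25A rose and no other was called. CDC25A removes the inhibitory phosphates from CDK2 and had 101 and 88.1 CPM in the controls and 172 and 175 CPM in the knockdown (edgeR adjusted p = 0.000312, log2 fold change 0.88 with an SE of 0.115). Of 13 genes of ubiquitin ligases that act on G1 proteins, FBXW7 and CUL4B rose and FBXO4 fell. FBXW7, the receptor through which phosphorylated cyclin E is degraded, had 56.9 and 61.7 CPM in the controls and 100 and 106 CPM in the knockdown (edgeR adjusted p = 0.000515, log2 fold change 0.80 with an SE of 0.113). CUL4B, a cullin scaffold, and FBXO4, an F-box protein linked to cyclin D1, stood at 0.48 and -0.59 on the log2 scale (edgeR adjusted p = 0.0081 and 0.036). Neither was called without control replicate 1 (edgeR adjusted p = 0.0773 and 0.237) or without control replicate 2 (0.0791 and 0.171), and FBXO4 was not called without knockdown replicate 2 (0.0566) or by DESeq2 (0.0507). SKP2 and CKS1B, which direct p27 to degradation, were not called, with log2 fold changes of 0.09 and 0.012.

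CCNE2 and CDC25A, called higher, and CCNE1 and E2F1, called lower, were counted outside the list of G1/S E2F targets. Of the 24 genes on that list 4 fell and none rose. At an unadjusted edgeR p under 0.05, 8 were lower and none higher, and DESeq2 called 4 lower and none higher. Over all 19686 tested genes, 3731 were lower and 3793 higher at that unadjusted p, and DESeq2 called 2098 lower and 1825 higher. The edgeR calls make 16.7% of the list lower, beside 13.1% of all genes, and its median log2 fold change was -0.12. Among those that fell were CDT1, a licensing factor (-0.54), the helicase subunit MCM5 (-0.63) and CDC45, which activates the helicase (-0.47), with edgeR adjusted p = 0.00737, 0.0189 and 0.031. These 3 genes were lower in knockdown replicate 2 than in replicate 1, and without knockdown replicate 2 only CDT1 of them passed the test (edgeR adjusted p = 0.0139, against 0.081 for MCM5 and 0.13 for CDC45). None of the 3 passed without control replicate 1 or without control replicate 2 (edgeR adjusted p between 0.0516 and 0.237). With GC and length offsets CDT1 stood at -0.29 and was no longer called (edgeR adjusted p = 0.106), nor was MCM5 (0.0599), while CDC45 was (0.0396). Of the 5 tested later cyclins and CDK1, CCNF fell (edgeR adjusted p = 0.00217, log2 fold change -0.65), and CCNA2, CCNB1, CCNB2 and CDK1 were not called.

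**Figure D5:**
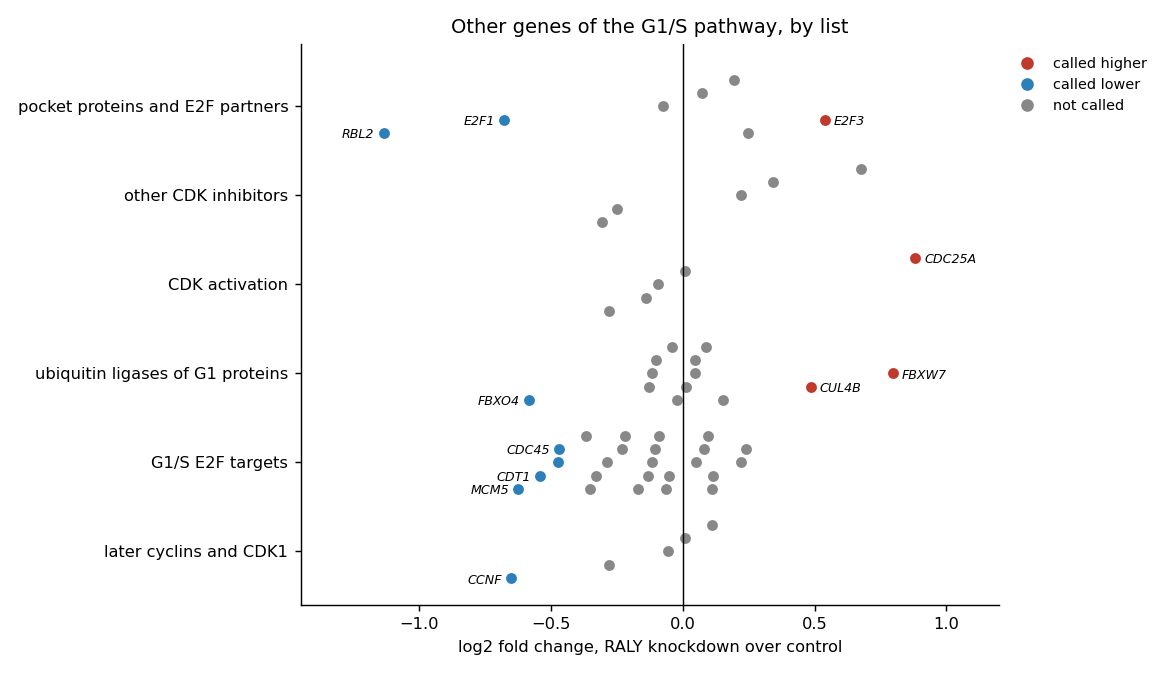
Log2 fold change of RALY knockdown over control (horizontal axis) for 58 tested genes of the G1/S pathway in 6 lists, each point a gene, with up to 3 called genes named in each direction per list; CCNA2 belongs to 2 lists. RBL2 at -1.14 and CDC25A at 0.88 are the extremes, and the called E2F targets lie between -0.63 and -0.47.

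Of the 12 called genes of these lists, 4 kept their call without control 1 and 4 without control 2. RBL2, CDC25A, FBXW7 and CCNF were called in all 13 alternative settings. A fit without 1 control takes its spread from the knockdown pair, and over all genes it called 340 higher and 668 lower without control 1 and 476 and 508 without control 2.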

How the data were processed

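RNA sequencing was deposited as 1 table of whole-number counts of reads per gene for each of the 4 libraries, with columns as featureCounts names them, per the file headers. The submitters' processing notes name HISAT2 2.0.4, SAMtools, Subread and featureCounts, and GRCh38. For the strand setting and any removal of duplicate reads, nothing is given in the sources used here. Gene names, canonical transcript lengths and GC content came from GENCODE release 44, in which 58472 of 58884 gene identifiers were found. Coordinates are those of the tables.

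Groups and replicate numbers were taken from sample titles. Genes were filtered with filterByExpr (19686 kept), scaled with TMM factors and tested with the robust quasi-likelihood F test of edgeR 4.0.16 (R 4.3.3) with a term for the group, with Benjamini-Hochberg adjustment of the p-values across all tested genes. The SE is the log2 fold change divided by the square root of F. Floors are 3 counts, from 0.178 to 0.225 CPM, and cover counting error only. Differences between libraries of a group use log2(CPM + 0.1). In simulated counts of this comparison over 19290 genes, 94% of 2-fold and 100% of 4-fold changes were recovered (100 genes each), with 15 false calls. The simulation used the spread of the trend across genes, not that of each gene. It held no change smaller than 2-fold, so it gives no recovery for changes of the size of the called G1 genes. The alternatives were other scalings and filters, DESeq2 1.42.0, a replicate block, GC and length offsets, counts corrected for levelling off (-2L ln(1 - count/2L), L the transcript length, at most 0.98 of the ceiling) and each library left out. The ceiling of 2 reads per base in the levelling-off correction is an assumption.

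Named were RALY, all 10 genes of the list and, from each pathway list, up to 4 called genes in each direction with the smallest p, or 2 genes where none was called (1 such gene is not reported here); CDK6 shares, RB1, SKP2, CKS1B, TSPAN31, TIGAR and the readthrough gene were added after their values were seen. Members and lists were chosen with earlier results of these data known.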

Additional observations from a re-analysis of the deposited data

How the results depend on the processing

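Of 92 alternative values of counts and shares, 68 stayed within 1.5 times the count, or within 1 SD of the share. Of 24 that moved, most came from leaving out a library: over these fits, genes called higher ran from 340 to 2908 and lower from 508 to 3351, the G1 genes called higher from 1 to 3 and lower from 0 to 3, and the other pathway genes called higher from 2 to 7 and lower from 2 to 15. Without a filter on low counts, 2 G1 genes were called lower, CDKN1B being the second. Genes called lower in all then numbered 3100, against 2578 in the main fit. Counts corrected for levelling off gave shifts of 26.0 points for the CCNE2 share and 5.73 points for the CCND1 share. The replicate numbers are shared by the groups, and same-numbered libraries deviated together across genes with a correlation of 0.22, but no label says what a number marks. With the number as a replicate block, 2 G1 genes were called lower, CDKN1B joining CCNE1, and 13 other pathway genes were called lower. That setting also raised the calls over all genes, to 3518 higher and 3536 lower from 2470 and 2578 in the main fit. The replicate block with GC and length offsets called 3734 genes higher and 3490 lower, with 4 G1 genes higher and 2 lower. Of the other pathway genes it called 7 higher. Directions reversed for 3 genes that were not called: CDK2 (from -0.14 to 0.081 with 1 library left out), CDKN1C (0.028 with GC and length offsets, and from -1.001 to 0.30 with 1 library left out) and CDK4 (-0.0001 with DESeq2 size factors, -0.016 with plain totals, -0.0003 by the DESeq2 Wald test, -0.020 with no filter, and from -0.13 to 0.095 with 1 library left out). The cause of these changes was not tested. With 2 libraries a group, changes of the inhibitors as large as the spread between knockdown libraries are not resolved.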
